A study of Mus musculus with 18 samples.

Results

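The transcripts of 9 genes that repress the circadian clock, or sit in its REV-ERB loop, were followed in the mouse heart after acute myocardial infarction (AMI). The genes were taken by symbol, and all 9 of them were among the 24419 symbols of the expression table and among the 13333 that passed its filter on low values. They are the period gene Per1, the cryptochromes Cry1 and Cry2, the REV-ERB receptors Nr1d1 and Nr1d2, Nfil3, the basic helix-loop-helix genes Bhlhe40 and Bhlhe41, and Ciart. RNA came from the left ventricle of 18 C57BL/6 mice aged 8 weeks, with 3 mice in each of 6 groups. The controls were sham mice, and in the other groups the proximal left anterior descending coronary artery was ligated and the infarcted ventricle taken 10 min, 1 h, 6 h, 24 h or 72 h later. All mice were anaesthetised with pentobarbital, by the labels. The clock time of the operation and of the collection is not given in the sources used here, so hours after ligation and time of day cannot be told apart for these genes. The tissue is a mixture of cells, so fewer cells of a type and less RNA per cell cannot be told apart either.

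The clock of a heart cell is a transcriptional loop. BMAL1, encoded by Arntl, pairs with CLOCK or NPAS2, binds E-boxes and switches on the period and cryptochrome genes, whose proteins return to the nucleus and block that pair. The same activators drive Nr1d1 and Nr1d2, whose REV-ERB proteins silence Arntl, Npas2, Cry1 and Nfil3 through the element that ROR receptors use for activation. The PAR bZIP factors DBP, TEF and HLF activate D-boxes, and the protein of Nfil3, also called E4BP4, occupies the same boxes and represses. The proteins of Bhlhe40 and Bhlhe41, also called DEC1 and DEC2, compete for E-boxes, and that of Ciart, also called CHRONO, binds BMAL1 and represses it. Bhlhe40 and Nfil3 are besides induced by hypoxia, cytokines or stress in many cells, and both act in leukocytes.

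The DNA that these loops act on is shown for 3 members, chosen because their starts hold the clock motifs in the form the background describes: Ciart with several E-boxes, Per1 with an E-box and a D-box, and Cry1 with an E-box and an E′-box. Promoters of 8 of the 9 members were in the RefSeq table (build GRCm38.p6), and Bhlhe40 was not. Both strands of the 250 bases before each start were searched. Capitals mark the E-box CACGTG, the E′-box CACGTT or its reverse complement AACGTG, and the D-box TTATGCAA. The stretches read 5′ to 3′ on the strand of the gene. Those of Ciart and Cry1 end where the gene begins, and that of Per1 ends just before a start that lies inside the annotated span of the gene. That of Ciart is chr3:95882252-95882478 on the minus strand, that of Per1 chr11:69098699-69098947 on the plus strand and that of Cry1 chr10:85185065-85185304 on the minus strand.
Ciart: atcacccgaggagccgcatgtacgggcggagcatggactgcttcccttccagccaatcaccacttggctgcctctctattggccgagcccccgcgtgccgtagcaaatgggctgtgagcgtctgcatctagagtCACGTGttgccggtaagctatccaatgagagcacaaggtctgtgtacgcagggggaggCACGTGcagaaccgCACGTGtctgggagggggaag
Per1: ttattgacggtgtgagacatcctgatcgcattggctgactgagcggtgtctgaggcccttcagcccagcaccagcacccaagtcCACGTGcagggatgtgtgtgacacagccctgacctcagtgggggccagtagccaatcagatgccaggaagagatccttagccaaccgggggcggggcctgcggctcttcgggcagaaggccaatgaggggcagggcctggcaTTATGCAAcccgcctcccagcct
Cry1: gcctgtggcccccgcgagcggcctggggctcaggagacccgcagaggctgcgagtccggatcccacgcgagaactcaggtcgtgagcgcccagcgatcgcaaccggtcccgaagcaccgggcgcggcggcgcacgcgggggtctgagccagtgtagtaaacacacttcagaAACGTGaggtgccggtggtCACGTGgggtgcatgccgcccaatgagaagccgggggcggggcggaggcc

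The E-box was in the promoters of 4 of the 8 members (Bhlhe41, Ciart, Cry1 and Per1), and 6.02% of all 32851 promoters of the table held it. The E′-box was in 3 (Cry1, Cry2 and Nr1d1), against 3.85% of all promoters. The D-box, searched as TTATGTAA and TTATGCAA, was in Per1 alone, against 1.5%. The half-site AGGTCA was in Nfil3, Nr1d2 and Per1, against 14.0%. The longer ROR and REV-ERB element, which is that half-site preceded by AANT, was in none of them (0.177% of all promoters), and neither was the cAMP response element TGACGTCA (1.55%). Per1 has a further start in the table, whose promoter held none of these motifs. These matches describe letters near a start and are not binding sites shown in this tissue.

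The 18 libraries were alike in summed FPKM (fragments per kilobase of transcript, scaled to the mapped fragments), from 542418 to 600467, and in symbols above 0, from 15926 to 17287. Read depth is unknown because the table holds no counts. The labelled tissue showed its markers: 7 cardiomyocyte genes summed to between 54211 and 57676 FPKM in sham mice and to between 19972 and 24817 at 72 h, 0.386 of the sham mean. At 72 h the mean of 6 fibroblast markers was 17.4 times that of sham, of 6 macrophage and monocyte markers 19.3 times, and of the leukocyte gene Ptprc 14.2 times. The 5 endothelial markers kept 0.927 of the sham mean. Markers of T cells and adipose tissue were below 1 FPKM in every mouse, B cell markers summed to at most 7.03 FPKM, erythroid markers ranged from 28.8 to 2384 FPKM over the mice, and fast skeletal muscle markers reached 16.9 FPKM at 72 h with Myh4 at 0 in every mouse. A pair of libraries stood apart from their groups. In the first 6 h mouse the atrial markers Myl4, Myl7 and Sln summed to 94.1 FPKM, against at most 3.05 in every other mouse, and its 5 neutrophil markers summed to 997 FPKM, against 116 and 375 in the other 6 h mice. Neat1, which is in none of the marker lists, was at 0.960 FPKM in that mouse, against 439 and 159 FPKM in the other 6 h mice. The cause was not tested. In the third 24 h mouse the neutrophil markers summed to 965 FPKM, against 209 and 42.6. Members whose values rest on these mice are given with and without them.

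**Figure D1:**
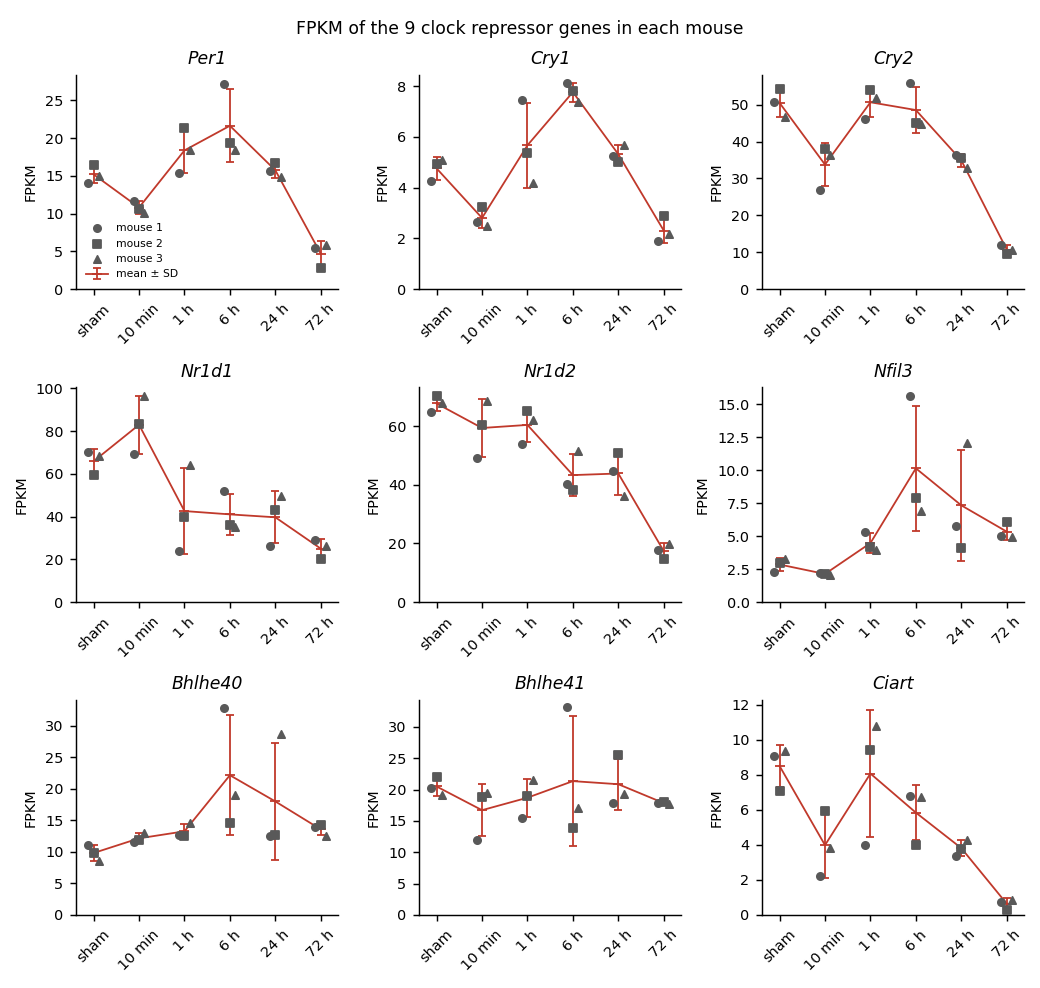
FPKM (vertical axes, from 0) of the 9 genes in each of the 18 mice, by group. Symbols mark the mice of a group, and the red line joins the group means with their SD (n = 3). The lowest mean is at 72 h for Per1, Cry1, Cry2, Nr1d1, Nr1d2 and Ciart, and the first 6 h mouse is the highest of all for Nfil3, Bhlhe40 and Bhlhe41.

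At 72 h all 9 genes differed from sham. Ciart, Cry2, Nr1d2, Per1, Nr1d1, Cry1 and, by little, Bhlhe41 were lower, and Nfil3 and Bhlhe40 were higher. Called here means an adjusted p under 0.05 in limma on log2(FPKM + 1), with the Benjamini-Hochberg method applied to all genes of a comparison. At that time 77.3% of all genes tested were called, 24.2% lower and 53.1% higher, so a call by itself is near the background and the sizes are given for that reason. The 7 lower genes lay wholly below sham, as did 25.4% of all genes, and the 2 higher ones wholly above, as did 55.1%. The median log2 fold change of the 9 genes at 72 h was -1.37, and that of all genes was 0.29. With median-of-ratios scaling the median of all genes was 0.05 and with quantile normalization -0.12, and the 7 lower genes stayed lower and called under both. Of the 2 higher genes, Bhlhe40 was not called under either (adjusted p = 0.184 and 0.724), and Nfil3 was not called under quantile normalization (adjusted p = 0.133). With every library scaled to the same FPKM sum, Bhlhe41 was not called (log2 difference -0.11, adjusted p = 0.182).

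Before 72 h the genes moved apart from each other. At 10 min none of the 9 was called, against 0.346% of all genes. At that time Per1, Cry1, Cry2, Nfil3 and Ciart lay wholly below the sham mice, as did 8.15% of all genes, and Bhlhe40 wholly above, as did 12.2%. At 1 h none was called against 0.722% of all genes, and Nfil3 and Bhlhe40 lay wholly above sham, as did 7.41%. These counts of 0 also held under each alternative setting. At 6 h 5 were called against 28.3% of all genes, with Cry1, Nfil3 and Bhlhe40 higher (11.6% of all genes) and Nr1d1 and Nr1d2 lower (16.8%). At that time 4 lay wholly above sham (18.6% of all genes) and 3 wholly below (30.2%). At 24 h 5 were called against 37.6%, with Nfil3 higher (26.2%) and Cry2, Nr1d1, Nr1d2 and Ciart lower (11.4%). At that time 2 lay wholly above sham (39.3% of all genes) and 4 wholly below (18.9%). Between neighbouring times 2 were called from 1 h to 6 h (20.5% of all genes), 1 from 6 h to 24 h (14.4%, and 1.94% lower as it was) and 5 from 24 h to 72 h (43.2%). The 5 were all lower, as were 13.5% of all genes, and their groups did not overlap, as in 19.1% of all genes. Comparisons that share a group share its mice, so they are not separate evidence. A single gene tested by exact permutation of 3 against 3 mice could not go below p = 0.1, and the p-values given are those of the limma fits.

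**Figure D2:**
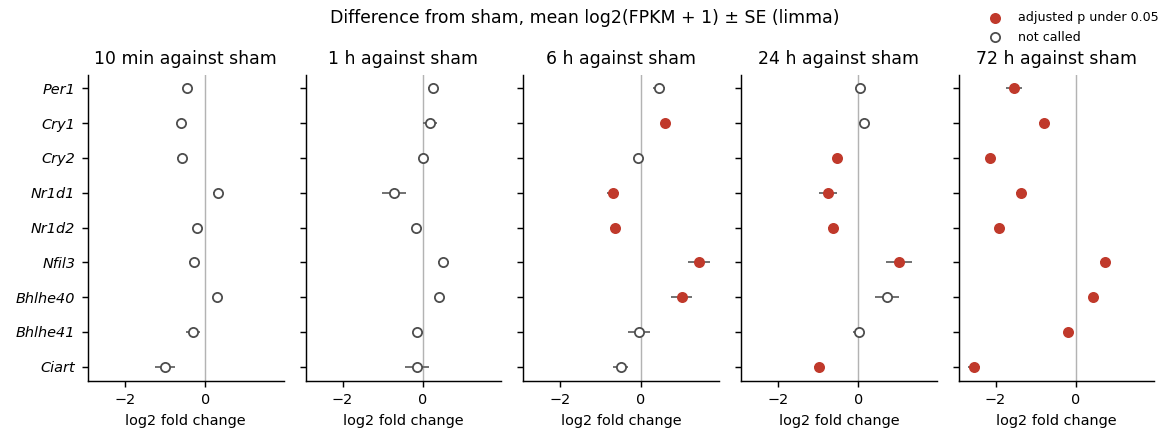
Log2 fold change of the 9 genes against sham (horizontal axes) at each time, on the log2(FPKM + 1) scale, with the SE of the limma fit. Filled points are called at an adjusted p under 0.05: 0 at 10 min and 1 h, then 5 (6 h), 5 (24 h) and 9 (72 h).

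Per1 (chr11:69095217-69109960, plus strand, mm10) encodes a period protein, the part of the repressor complex that also answers light, feeding and glucocorticoid signals. Its FPKM was 14.1, 16.4 and 15.0 in the sham mice and 11.7, 10.6 and 10.1 at 10 min. The 10 min mice all lay below the sham mice, by 0.45 on the log2 scale (SE 0.08), but the adjusted p was 0.0777. At 1 h the values were 15.4, 21.3 and 18.4 FPKM, and at 6 h they were 27.2, 19.3 and 18.4 FPKM. The 6 h mice all lay above sham, with a log2 difference of 0.46 (SE 0.15) and an adjusted p of 0.0546. That difference was on the called side in 4 of 16 alternatives, among them the fit without the third 6 h mouse (adjusted p = 0.0373), and it was 0.30 without the first 6 h mouse. At 24 h the mean was 15.7 ± 0.975 FPKM (SD, n = 3), close to the 15.2 ± 1.17 of sham. At 72 h Per1 measured 5.44, 2.80 and 5.86 FPKM, all below every earlier mouse. It fell by 1.55 on the log2 scale against sham (SE 0.20, adjusted p = 0.000125) and by 1.60 against 24 h (SE 0.22, adjusted p = 0.00131).

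Cry1 (chr10:85131700-85185064, minus strand) encodes the cryptochrome that acts late in the repressive phase, and its gene is also a REV-ERB target. It had 4.26, 4.93 and 5.09 FPKM in the sham mice and 2.66, 3.26 and 2.51 at 10 min, again without overlap but with an adjusted p of 0.0717 (log2 difference -0.60, SE 0.10). The 1 h mice were spread, at 7.47, 5.36 and 4.19 FPKM. The 6 h mice lay close together at 8.12, 7.81 and 7.37 FPKM, all above the sham mice. Cry1 rose by 0.61 on the log2 scale at 6 h (SE 0.10, adjusted p = 0.00584), and by 0.58 without the first 6 h mouse (adjusted p = 0.0119). It fell from 6 h to 24 h by 0.47 (SE 0.12, adjusted p = 0.0402), to 5.26, 5.004 and 5.69 FPKM, a call that was lost without any one of the 6 mice (adjusted p from 0.0570 to 0.135). At 72 h it measured 1.89, 2.88 and 2.17 FPKM. It fell by 0.81 against sham (SE 0.12, adjusted p = 0.000304) and by 0.94 against 24 h (SE 0.14, adjusted p = 0.00156). Cry1 was therefore the member that was called higher at one time and lower at a later one.

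Cry2 (chr2:92403646-92434043, minus strand), the partner cryptochrome, was the most abundant member per length in sham mice after the REV-ERB genes. Its FPKM was 50.6, 54.2 and 46.6 in sham mice, 27.0, 38.0 and 36.3 at 10 min, and 46.1, 54.0 and 51.8 at 1 h. The 10 min mice lay wholly below sham (log2 difference -0.58, SE 0.13, adjusted p = 0.112), and the 1 h mice overlapped with it. At 6 h the values were 55.9, 44.9 and 44.8 FPKM, which overlapped with sham too. The log2 difference was -0.06 with the first 6 h mouse (adjusted p = 0.693) and -0.16 without it (adjusted p = 0.209). At 24 h Cry2 had fallen to 36.4, 35.5 and 32.9 FPKM, by 0.52 on the log2 scale (SE 0.09, adjusted p = 0.00776). At 72 h it measured 11.9, 9.64 and 10.7 FPKM, 0.213 of the sham mean. Cry2 fell by 2.13 against sham (SE 0.09, adjusted p = 1.58e-07) and by 1.61 against 24 h (SE 0.11, adjusted p = 6.26e-05). Both cryptochromes were thus low at 72 h, and Cry1 alone of them had been called higher at 6 h. The difference between Cry1 and Cry2 at 6 h was not tested.

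Ciart (chr3:95878503-95882251, minus strand), whose promoter with 3 E-boxes is printed above, had the lowest ratio to sham of the 9 genes at 72 h. Its sham mice measured 9.07, 7.10 and 9.34 FPKM. At 10 min they were 2.21, 5.93 and 3.81 FPKM, wholly below sham with a wide spread (log2 difference -0.99, SE 0.25, adjusted p = 0.159). At 1 h the mice ran from 3.97 through 9.44 to 10.8 FPKM and overlapped with sham. At 6 h they measured 6.77, 4.01 and 6.74 FPKM, wholly below sham but not called (log2 difference -0.49, SE 0.19, adjusted p = 0.0924). Ciart then fell to 3.38, 3.76 and 4.31 FPKM at 24 h, by 0.98 on the log2 scale (SE 0.13, adjusted p = 0.00492). At 72 h it was at 0.756, 0.291 and 0.880 FPKM, 0.0756 of the sham mean. Ciart fell by 2.54 on the log2(FPKM + 1) scale (SE 0.16, adjusted p = 1.31e-06), a scale that understates the change of a gene this low, and it fell by 1.57 against 24 h (SE 0.17, adjusted p = 0.000409).

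Nr1d1 (chr11:98767932-98775333, minus strand) encodes REV-ERBα, a heme-binding nuclear receptor that represses Arntl and many metabolic and inflammatory genes. With 70.0, 59.4 and 68.2 FPKM it was, beside Nr1d2, the most abundant member per length in sham mice, above 90.6% of the genes tested. Its 10 min values of 69.2, 83.2 and 96.4 FPKM overlapped with sham (log2 difference 0.32, SE 0.12, adjusted p = 0.286). The 1 h mice were far apart, at 24.1, 39.7 and 63.9 FPKM. The first 1 h mouse, lowest here, was also the lowest of its group for Ciart and, as given further on, for Dbp, while it was the highest for Cry1. At 6 h Nr1d1 measured 52.0, 36.0 and 35.1 FPKM and at 24 h 26.2, 43.3 and 49.5 FPKM, wholly below sham at both times. It fell by 0.69 at 6 h (SE 0.16, adjusted p = 0.0177) and by 0.76 at 24 h (SE 0.22, adjusted p = 0.0351). Without the first 6 h mouse the 6 h fall was 0.87 (adjusted p = 0.00172). Without the third 24 h mouse the 24 h fall was 0.94 (adjusted p = 0.0126). The 6 h call was lost without the first or the third sham mouse (adjusted p = 0.0697 and 0.0669) and with all 18 mice in one fit (adjusted p = 0.0732). The 24 h call was lost without the second 24 h mouse (adjusted p = 0.0536) or without any one sham mouse (adjusted p from 0.0781 to 0.112). At 72 h it measured 28.9, 20.02 and 26.1 FPKM, and it fell by 1.37 (SE 0.13, adjusted p = 1.57e-05). From 24 h to 72 h the difference was -0.61 (SE 0.24, adjusted p = 0.0795), and it was called without the first 24 h mouse (adjusted p = 0.0120).

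The end of Nr1d1 overlaps that of Thra, a thyroid hormone receptor gene on the opposite strand, over 263 exonic bases or 8.55% of the exonic length of Nr1d1. The strand setting of the libraries is not stated, so reads from that stretch may count for either gene. Thra measured 13.4 ± 0.503 FPKM in sham mice, and at 6 h, when Nr1d1 was lower, it was lower as well, at 7.70 ± 0.713 FPKM (SD, n = 3). At 72 h, when Nr1d1 was at 0.380 of its sham mean, Thra was at 0.831 of its own.

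Nr1d2 (chr14:18204054-18239127, minus strand) encodes REV-ERBβ, which overlaps in function with REV-ERBα. It varied less between mice. Sham mice measured 64.9, 70.3 and 68.1 FPKM, 10 min mice 49.0, 60.6 and 68.6 FPKM, and 1 h mice 54.1, 65.1 and 62.1 FPKM. The 10 min and the 1 h mice both overlapped with sham. At 6 h it had fallen to 40.1, 38.2 and 51.6 FPKM, by 0.64 against sham (SE 0.12, adjusted p = 0.00866) and by 0.48 against 1 h (SE 0.13, adjusted p = 0.0400). The second of these calls was lost without the first or second 6 h mouse or any one 1 h mouse (adjusted p from 0.0642 to 0.140). At 24 h it stayed at that level, with 44.7, 50.8 and 36.2 FPKM and a difference from sham of -0.63 (SE 0.13, adjusted p = 0.0124), which was lost without the second sham mouse (adjusted p = 0.0549). At 72 h it measured 17.6, 14.7 and 19.9 FPKM, 0.257 of the sham mean. It fell by 1.91 against sham (SE 0.10, adjusted p = 6.14e-07) and by 1.28 against 24 h (SE 0.16, adjusted p = 0.000859). Both REV-ERB genes were thus lowest at 72 h, but for Nr1d1 the 72 h mice overlapped with the 24 h mice and for Nr1d2 they did not.

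Nfil3 (chr13:52967209-52981073, minus strand), the D-box repressor and a REV-ERB target, was the member of lowest level in sham mice and the one called higher at every time from 6 h on. Its sham mice measured 2.27, 2.99 and 3.299 FPKM, and its 10 min mice 2.22, 2.096 and 2.09 FPKM, just below them. At 1 h the values were 5.32, 4.16 and 3.95 FPKM, all above sham, with a log2 difference of 0.51 (SE 0.13) and an adjusted p of 0.216. At 6 h they were 15.6, 7.91 and 6.93 FPKM. Nfil3 rose by 1.46 against sham (SE 0.27, adjusted p = 0.00929) and by 0.95 against 1 h (SE 0.27, adjusted p = 0.0448). Without the first 6 h mouse the rise against sham was 1.13 (adjusted p = 0.00324). The call against 1 h was lost without the second 6 h mouse (adjusted p = 0.0550) or any one 1 h mouse (adjusted p from 0.0811 to 0.132). At 24 h the mice measured 5.80, 4.12 and 12.1 FPKM, a rise of 1.01 (SE 0.33, adjusted p = 0.0482) that was 0.62 and still called without the third 24 h mouse (adjusted p = 0.0293). The 24 h call was lost in 9 of 16 alternatives, among them the fits without the first 24 h mouse (adjusted p = 0.0683) and without any one sham mouse (adjusted p from 0.0943 to 0.145). At 72 h the mice lay together at 5.04, 6.09 and 4.91 FPKM, a rise of 0.72 (SE 0.12, adjusted p = 0.000600) that quantile normalization reduced to 0.21 (adjusted p = 0.133).

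Bhlhe40 (chr6:108660629-108666925, plus strand) encodes DEC1, an E-box repressor induced by hypoxia and by immune signals. It measured 11.0, 9.83 and 8.58 FPKM in sham mice, 11.5, 11.8 and 13.0 FPKM at 10 min, and 12.7, 12.6 and 14.5 FPKM at 1 h. Every AMI mouse of these early groups lay above every sham mouse, by 0.29 (SE 0.10, adjusted p = 0.257) and 0.40 (SE 0.10, adjusted p = 0.198) on the log2 scale. At 6 h the values were 32.8, 14.6 and 19.0 FPKM, a rise of 1.03 (SE 0.26, adjusted p = 0.0264). It was 0.71 and called without the first 6 h mouse (adjusted p = 0.0175). The call was lost without any one sham mouse (adjusted p from 0.0644 to 0.0918) and with no filter on low FPKM (adjusted p = 0.0526). At 24 h the third mouse measured 28.6 FPKM and the others 12.6 and 12.7 FPKM. The difference at 24 h was 0.72 (SE 0.30, adjusted p = 0.0971), and without the third mouse it was 0.34 (adjusted p = 0.0525). At 72 h the mice measured 14.0, 14.2 and 12.5 FPKM, a rise of 0.43 (SE 0.10, adjusted p = 0.00323). Under median-of-ratios scaling that difference was 0.16 (adjusted p = 0.184), under quantile normalization 0.04 (adjusted p = 0.724), and with all 18 mice in one fit the adjusted p was 0.152.

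Bhlhe41 (chr6:145858243-145865558, minus strand), which encodes DEC2, varied least of the 9 genes between groups, with group means from 16.7 to 21.3 FPKM. Sham mice measured 20.2, 22.03 and 19.2 FPKM, and 10 min mice 11.9, 18.8 and 19.4 FPKM. The 1 h mice measured 15.5, 19.0 and 21.6 FPKM, and the 24 h mice 17.9, 25.4 and 19.2 FPKM. All of these groups overlapped with sham, and the log2 differences were -0.31, -0.14 and 0.01. At 6 h the first mouse had 33.1 FPKM, the highest value of all 18, and the others had 13.9 and 17.0 FPKM, below every sham mouse. The difference at 6 h was -0.04 (SE 0.28, adjusted p = 0.932) with that mouse and -0.39 (SE 0.11, adjusted p = 0.0495) without it. That mouse is the one with atrial markers, at 63.0 FPKM for Myl4 and 18.7 FPKM for Myl7. Their part in the value of Bhlhe41 was not tested. At 72 h the mice were close together at 17.9, 18.0 and 17.6 FPKM, and Bhlhe41 fell by 0.19 (SE 0.07, adjusted p = 0.0350). The call was lost in 6 of 16 alternatives, including the fits without the first or the third 72 h mouse (adjusted p = 0.0599 and 0.0875) and without the first or second sham mouse (adjusted p = 0.0740 and 0.135). Another of the 6 was the fit with the same FPKM sum in every library (adjusted p = 0.182).

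**Figure D3:**
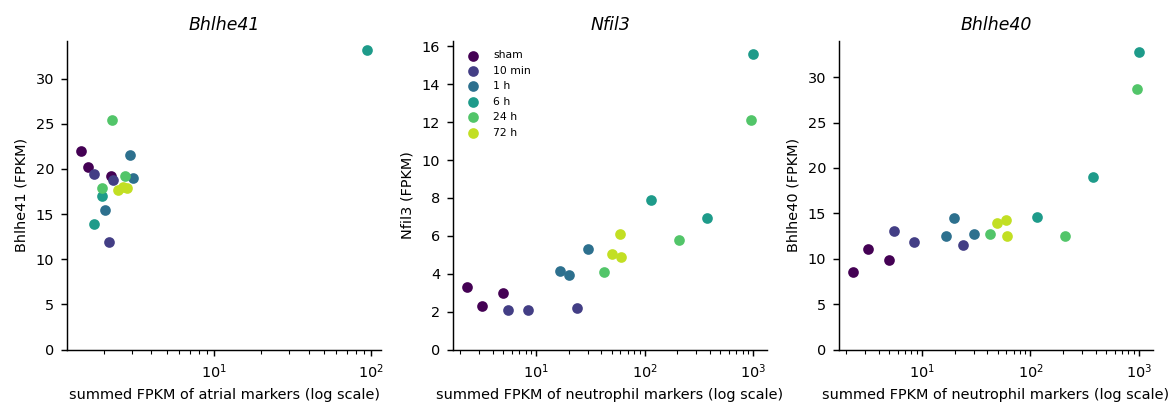
FPKM of Bhlhe41, Nfil3 and Bhlhe40 (vertical axes) in each of the 18 mice against the summed FPKM of 3 atrial or 5 neutrophil markers (log horizontal axes), coloured by group. The first 6 h mouse stands alone at 94.1 FPKM of atrial markers, and the first 6 h mouse and the third 24 h mouse, at 997 and 965 FPKM of neutrophil markers, have the highest Nfil3 and Bhlhe40.

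The highest values of Nfil3 and of Bhlhe40 came from the first 6 h mouse and the third 24 h mouse, the pair with most neutrophil marker RNA. The neutrophil markers summed to between 2.32 and 4.99 FPKM in sham mice, 5.47 and 23.8 at 10 min, 16.6 and 29.9 at 1 h, and 49.6 and 60.2 at 72 h. All 5 of the markers in the table reached 1 FPKM in some mouse, and a further one, Ly6g, is not in it. The part of neutrophil RNA in these values was not tested. Without either mouse the 6 h rises of both genes and the 24 h rise of Nfil3 were still called, as given above.

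Genes whose levels were most alike those of a member over the 18 mice were sought among 11485. For Nfil3 they were the prostaglandin synthase gene Ptgs2 (Pearson r of log2(FPKM + 1) 0.954), Pim1 and Trib1. For Bhlhe40 the first was the glucose transporter gene Slc2a3 (r = 0.923). For Bhlhe41 they were the atrial genes Myl7 (r = 0.647) and Myl4 (r = 0.639), which rest on the first 6 h mouse. For Per1 the nearest gene was Per2 (r = 0.927), for Nr1d2 they were the clock-controlled deubiquitinase Usp2 (r = 0.971), Pdf and Dbp (r = 0.968), and for Ciart Rasd2 (r = 0.923) and Tef (r = 0.919). Cry2 was nearest to Trip10 (r = 0.975), Cry1 to Chd6 (r = 0.914) and Nr1d1 to the endothelial gene Kdr (r = 0.854). Mice of one group share a time and a cell makeup, so these coefficients carry no test.

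At 72 h the activators were higher than in sham, while most of the repressors were lower. Of all genes tested, 53.1% were called higher at that time and 55.1% lay wholly above sham. Arntl was at 0.495, 0.344 and 0.327 FPKM in sham mice and at 10.8, 10.3 and 9.203 FPKM at 72 h, with no overlap, and it rose by 3.0 on the log2 scale (SE 0.09, adjusted p = 3.43e-08). It had already been at 4.56, 2.67 and 3.34 FPKM at 10 min, a rise of 1.68 (SE 0.15, adjusted p = 0.0142), while the 1 h mice were back at 0.964, 0.358 and 0.479 FPKM and overlapped with sham. The 10 min call was lost without the third 10 min mouse (adjusted p = 0.0769), without any one sham mouse (adjusted p from 0.0561 to 0.0690), and with no filter. At 6 h Arntl was at 2.43, 1.87 and 1.36 FPKM, a rise of 1.04 (SE 0.14, adjusted p = 0.00336). Clock rose by 0.98 at 72 h (adjusted p = 1.06e-05), from 16.6 ± 0.623 to 33.8 ± 3.77 FPKM (SD, n = 3). Npas2, the partner that can replace CLOCK, rose by 1.02 (adjusted p = 0.000192), from 0.408 ± 0.118 to 1.87 ± 0.559 FPKM.

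Other clock-controlled genes had larger falls at 72 h than most members. Dbp measured 91.5, 88.9 and 86.5 FPKM in sham mice and 3.78, 2.74 and 3.52 FPKM at 72 h, and it fell by 4.38 (SE 0.10, adjusted p = 1.11e-08). Its 1 h mice were spread as well, in the same order as those of Nr1d1, at 24.7, 57.7 and 92.3 FPKM. At 10 min it was at 26.6, 53.0 and 56.0 FPKM. Per2 fell by 2.88 at 72 h (adjusted p = 2.27e-07), Per3 by 3.04 (adjusted p = 1.63e-07), Hlf by 2.88 (adjusted p = 5.05e-08), Tef by 2.61 (adjusted p = 3.72e-08) and Usp2 by 2.23 (adjusted p = 7.32e-08). At 10 min Per2 was at 4.74 ± 1.41 FPKM against 12.5 ± 1.90 in sham mice, and Per3 at 11.4 ± 3.35 against 28.6 ± 1.42 (SD, n = 3). Both were called lower at 10 min (adjusted p = 0.0433 for each), and without any one sham mouse neither was called (adjusted p from 0.126 to 0.159). Both calls were also lost with no filter on low FPKM (adjusted p = 0.113 for each) and with no variance trend (adjusted p = 0.0606 and 0.0618). The same held without the third 10 min mouse (adjusted p = 0.122 and 0.0769), and further settings lost either call. In the 10 min group Per1, Per2, Per3, Cry1, Cry2, Ciart, Nfil3 and Dbp lay wholly below sham, as did 8.15% of all genes. Arntl and Bhlhe40 lay wholly above it, as did 12.2%. Nr1d1, Nr1d2 and Bhlhe41 overlapped with sham, and the mean of Nr1d1 was 1.26 times that of sham. Of these genes Per2, Per3 and Arntl were called. At 1 h Per3 still lay wholly below sham but was not called (adjusted p = 0.247). Nfil3 and Bhlhe40 then lay wholly above sham, and the others of these overlapped with it.

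Rora, a receptor that competes with the REV-ERB proteins, had 8.60 ± 0.306 FPKM in sham mice and 6.36 ± 0.229 at 72 h (SD, n = 3), and it fell by 0.38 (adjusted p = 0.000955). Rorb was below the filter, with at most 0.127 FPKM in any mouse. Nono, a partner of the period proteins, rose by 1.08 (adjusted p = 2.41e-06), from 41.4 ± 1.54 to 88.8 ± 6.98 FPKM. Of a list of 27 other clock genes 25 were tested. Of these 3 were called higher and 5 lower at 6 h. At 24 h 6 were called in each direction. The numbers at 72 h were 9 higher and 11 lower. These counts stand beside the 28.3%, 37.6% and 77.3% of all genes called at the same times, given above. At 1 h none of the 25 was called, against 0.722% of all genes. At 10 min 2 were called higher and 3 lower, against 0.346% called in either direction. Clock, 1 of the higher genes at 10 min, was not called with all 18 mice in one fit (adjusted p = 0.0858). Without any one sham mouse Clock was not called either (adjusted p from 0.110 to 0.141). Further settings lost its call too, among them no filter on low FPKM (adjusted p = 0.0962) and the fit without the third 10 min mouse (adjusted p = 0.101). The median log2 fold change of the list at 72 h was -0.12, and that of all genes was 0.29.

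**Figure D4:**
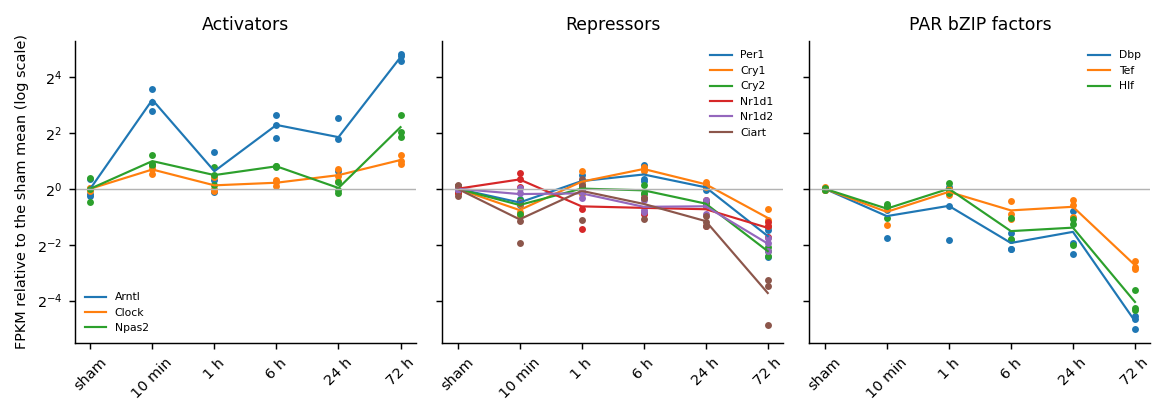
FPKM relative to the sham mean (log vertical axis) of 3 activators, 6 repressors and 3 PAR bZIP genes by group. Lines join the ratios of group means and points are mice. Arntl is highest at 72 h, Ciart is the lowest repressor there at 0.0756, and Dbp, Tef and Hlf are lowest at 72 h.

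Cardiomyocyte markers were lower late after ligation, as most members were, and their ratios are placed side by side. At 72 h the marker sum was 0.386 of sham. Below that ratio were Ciart (0.0756), Cry2 (0.213), Nr1d2 (0.257) and Per1 (0.310), Nr1d1 was near it (0.380), and above it were Cry1 (0.486), Bhlhe41 (0.871), Bhlhe40 (1.38) and Nfil3 (1.87). When each mouse's FPKM was divided by its own marker sum, Ciart was at 0.195 of the sham value, Cry2 at 0.553 and Nr1d2 at 0.670, and for these the 72 h and sham mice did not overlap. Per1 was then at 0.799, Nr1d1 at 0.981 and Cry1 at 1.28, and these overlapped with sham. Nfil3, Bhlhe40 and Bhlhe41 were at 4.90, 3.61 and 2.28 of sham, all without overlap. Division by a sum at 0.386 of sham raises every ratio, and Bhlhe41 had been at 0.871 as FPKM. The share of all genes without overlap was not counted on this scale. At 24 h the marker sum was 0.718 of sham. Per marker FPKM Ciart was then at 0.639, Nr1d1 at 0.867, Nr1d2 at 0.900 and Cry2 at 0.972, and all 4 overlapped with sham. Per1 (1.45), Cry1 (1.58), Nfil3 (3.81), Bhlhe40 (2.72) and Bhlhe41 (1.43) lay wholly above sham on this scale. The 6 h falls stood at a marker ratio of 0.887: per marker FPKM Nr1d2 was at 0.725 without overlap and Nr1d1 at 0.715 with overlap. These ratios were chosen as a description, and the part of the change in cells was not tested.

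**Figure D5:**
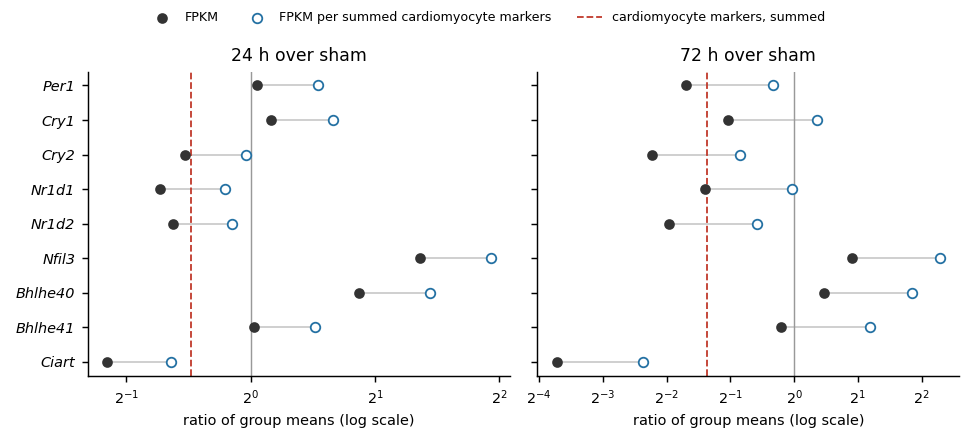
Ratio of group means to sham (log horizontal axes) at 24 h and 72 h for the 9 genes, as FPKM (filled) and as FPKM per summed FPKM of 7 cardiomyocyte markers in the same mouse (open). The dashed line is the ratio of the marker sum itself, 0.718 at 24 h and 0.386 at 72 h, and Ciart stays at 0.195 in the open points at 72 h.

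The order of the groups differed from gene to gene, but few neighbours in an order were separated. Groups were ordered by their own means before the steps were read. The share of all genes with such steps was not counted for these orders, so the steps only describe the members. For Per1 the order from highest to lowest mean was 6 h, 1 h, 24 h, sham, 10 min and 72 h, and the groups that did not overlap with the next were sham from 10 min and 10 min from 72 h. For Cry1 it was the same order, and sham from 10 min was the separate step. For Cry2 it was 1 h, sham, 6 h, 24 h, 10 min and 72 h, with steps after 6 h and after 10 min. Nr1d1 ran from 10 min through sham, 1 h, 6 h and 24 h to 72 h with every neighbour overlapping, although the ends lay 3.32-fold apart. Nr1d2 ran from sham through 1 h, 10 min, 24 h and 6 h to 72 h, with the last step separate. Ciart ran from sham through 1 h, 6 h, 10 min and 24 h to 72 h, also with the last step separate, and its ends lay 13.2-fold apart, the widest range of the 9. Nfil3 and Bhlhe40 both ran from 6 h through 24 h, 72 h and 1 h, followed by sham and 10 min for Nfil3 and by 10 min and sham for Bhlhe40. The separate steps were 1 h from sham and sham from 10 min for Nfil3, and 10 min from sham for Bhlhe40. Bhlhe41 had no separate step, and its highest mean was 1.28-fold its lowest.

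Other annotated genes overlap the exons of 3 more members, on the opposite strand. For Cry2 and Bhlhe40 the overlapping genes reached at most 0.159 and 0.0696 FPKM in any mouse. For Bhlhe41 the overlap with Gm43909 covers 1280 bases, 19.0% of its exonic length, and that gene is not in the table. The values of Cry1, Cry2, Bhlhe40 and Bhlhe41 were written with more than 8 digits, as were those of 2898 tested symbols, while 7 digits were most common, so entries may have been combined under these symbols in a way the sources used here do not give.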

How the data were processed

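The authors sequenced polyA RNA of the left ventricle from 18 mice in paired-end reads on an Illumina platform. Reads were trimmed with cutadapt 1.18 and mapped to mm10 with HISAT2 2.1.0, and StringTie 1.3.4d gave the FPKM that the authors deposited, 1 value per gene symbol and mouse. The annotation used is not given in the sources used here. Groups and mouse numbers came from the sample titles, where the paper calls the labelled controls sham mice. The names of 4 columns differed from a title by 1 misread character, and each was matched to the only title it resembled. FPKM entered as deposited, with no scaling. Symbols that reached 1 FPKM in 1 or more mice were kept (13333 of 24419), as the authors did, and genes constant over the 6 mice of a comparison were left out of it. Log2(FPKM + 1) was fitted with limma 3.58.1 in R 4.3.3 (lmFit, eBayes with a variance trend), each comparison on its own 6 mice, two-sided, with Benjamini-Hochberg adjusted p over every gene of the comparison. The authors' cufflinks test was not repeated, since it needs reads.

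The table gives no counts, so depth and counting error are unknown and precision comes from the spread of 3 mice. The 9 members, the list of 27 other clock genes and the marker lists were chosen with earlier results of these data known. All members were named. Of the list, the activators, receptors, period and PAR bZIP genes were named, and others with a called log2 fold change beyond 1 against sham. A gene of the list is not reported here. Genes alike in pattern were the 3 with the highest Pearson r for each member. Gene positions and overlaps are from GENCODE M21 on mm10, and promoters from RefSeq. Alternatives were each mouse left out, a replicate block, no variance trend, a single fit of all 18 mice, quantile normalization, median-of-ratios scaling, equal FPKM sums, a filter on the mean FPKM or none, a pseudocount of 0.1 and, added after seeing the data, constant genes kept in the fit. The fit was tested on simulated data. A comparison of the proteins was planned and not analysed here. Python 3.11.15, numpy 2.4.6, pandas 2.3.3 and matplotlib 3.10.9 were used.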

Additional observations from a re-analysis of the deposited data

Results flagged for a closer look

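The effect against sham differed between neighbouring times, by the limma test of the later against the earlier mice, for 8 results. From 1 h to 6 h the log2 difference was -0.48 for Nr1d2 and 0.95 for Nfil3, and 20.5% of all genes were called. With 1 mouse left out, 0 to 2 members were called in that comparison. From 6 h to 24 h the difference was -0.47 for Cry1, and 14.4% of all genes were called. That call was lost in every fit with 1 mouse left out. From 24 h to 72 h the difference was -1.60 for Per1, -0.94 for Cry1, -1.61 for Cry2, -1.28 for Nr1d2 and -1.57 for Ciart. In that comparison 43.2% of all genes were called. Groups of 3 mice are too small for a test of single outlying mice, and none was made.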

How the results depend on the processing

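Over the 9 genes and 8 comparisons, 1081 of 1152 alternative fits kept the side of the threshold, 54 lost a call and 17 gained one. Most of the results were not called in the main fit and so had no call to lose. A direction was counted as turned only where the log2 difference exceeded its SE on both sides, and none was. Differences within their SE could change sign, as that of Ciart at 1 h did, from -0.15 to 0.23 without the first 1 h mouse. With all mice kept, the counts of called members moved by more than 1.5 times in 3 comparisons. For 24 h against sham it was 3 in place of 5 with no filter on low FPKM, with 3 lower and 0 higher in place of 4 lower and 1 higher. For 6 h against 1 h it was 0 in place of 2 with no filter, and 1 with the same FPKM sum, with constant genes kept or with the replicate block. For 24 h against 6 h it was 0 in place of 1 with no filter or with the replicate block, and 2 with a pseudocount of 0.1, a mean FPKM of at least 1, median-of-ratios scaling or all 18 mice in one fit. Leaving out 1 mouse gave 3 to 6 called members at 6 h, 2 to 5 at 24 h, 0 to 2 for 6 h against 1 h and 0 for each fit of 24 h against 6 h. The share of all genes called moved too. Without any one sham mouse it was 12.3% to 13.8% at 6 h, in place of 28.3%, and 12.2% to 15.9% at 24 h, in place of 37.6%. Without any one 1 h mouse it was 6.16% to 8.84% for 6 h against 1 h, in place of 20.5%. For 24 h against 6 h it was 14.4% with all mice and ran from 0.015% to 15.8% with 1 mouse left out. For 72 h against sham the counts were 7 to 9 under all alternatives. The causes were not tested. Replicate numbers were not used to pair the mice in the main fits. In no comparison did all 3 same-numbered pairs have deviations correlated above 0.1, although 1 pair reached 0.415 (second mice, 24 h and 6 h). In groups of 3 this check cannot exclude that same-numbered mice shared a batch. Scaling changed the balance of all genes called. At 72 h 68.7% of the calls were higher, against 53.6% after median-of-ratios scaling and 42.5% after quantile normalization, and at 24 h 69.8%, against 51.1% and 43.6%. The unknown depth limits what can be said of genes near 1 FPKM, such as Ciart at 72 h.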
